A study of Homo sapiens with 3 samples.

Results

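The genes examined here encode the nuclear subunits of the respiratory chain complexes I to IV and of ATP synthase, together with the NDUFAF assembly factors of complex I. They were selected by symbol among the protein-coding genes of GENCODE 44: all symbols starting with NDUF, UQCR or ATP5, those starting with COX followed by a digit from 4 to 8, and SDHA, SDHB, SDHC, SDHD and CYC1. The rule found 99 of 19689 protein-coding genes: 40 complex I subunits, 8 complex I assembly factors, 4 genes of complex II, 10 of complex III, 17 of complex IV and 20 of ATP synthase. Assignment followed the symbol, so that NDUFA4, which is now placed in complex IV, was counted with complex I. NDUFC2-KCTD14 and ATP5MF-PTCD1 are readthrough genes that start at the promoters of NDUFC2 and ATP5MF and thus shared their peaks. Their values are not separate measurements.

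The data came from chromatin immunoprecipitation sequencing (ChIP-seq) in HuCCT1 cells, an established line from human bile duct cancer (cholangiocarcinoma), and no treatment or genetic change was given in the labels. There were 3 libraries, 1 with an antibody against Strawberry Notch 1 (SBNO1), 1 against TAF4, which belongs to the TFIID complex that assembles RNA polymerase II at promoters, and 1 with control IgG, in which the unspecific background appears. By the methods of the study, several immunoprecipitates were pooled for each antibody before sequencing, so that replicate error could not be assessed and no difference was tested. Intervals given with shares below are exact 95% Clopper-Pearson intervals, which cover counting error only. The peak lists held 16147 peaks for SBNO1, 12763 for TAF4 and 1598 for IgG, with a deposited score that ends at a cap of 1000 and was used only to rank peaks within a list. The number of reads behind a peak is unknown. A gene without a listed peak is therefore a gene where none was called, not one shown to be unbound.

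The respiratory chain passes electrons from NADH (complex I) and succinate (complex II) through coenzyme Q, complex III and cytochrome c to oxygen at complex IV, and the proton gradient built on the way drives ATP synthase. Most subunits are encoded in the nucleus, a few in mitochondrial DNA, and both sets have to be made in matching amounts. The nuclear genes are known for compact, CpG-rich promoters that lack a TATA box and often hold sites for the regulators NRF1, GABPA (an ETS factor), YY1, SP1 and ERRα. The mitochondrial genes lie outside the rule, and none of the 3 lists held a peak on the mitochondrial chromosome.

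To show the promoters concerned, sequences were taken from RefSeq on the build GRCh38.p14. The table used held a promoter for 78 of the 99 genes, and all 78 agreed letter by letter with the genome. Genes without an entry included NDUFA4, NDUFA4L2, NDUFB5, NDUFB9, NDUFC2, NDUFS5, NDUFAF6, SDHC, CYC1, UQCRB, UQCRHL, COX4I2, COX6C, COX7A1, ATP5F1B, ATP5F1D, ATP5MC3, ATP5MF, ATP5MF-PTCD1 and ATP5MGL. Each sequence below has 160 bases on the strand of the gene, placed around the annotated start so that the last 30 bases belong to the transcript. Capitals mark every match, on either strand, to 7 consensus motifs: GCGCATGC for NRF1, CCGGAA for ETS factors such as GABPA, AAGATGGCG for YY1, GGGCGG for SP and KLF factors, CCAAT for NFY, AAGGTCA for the ERR receptors and TATAAA for the TATA box. A match is a description of letters and not a site of binding. The promoters of the genes with the highest-scoring SBNO1 or TAF4 peak of their group are shown. Peaks of both proteins overlapped each of these stretches, except that NDUFB3 had a TAF4 peak only. At UQCR10 the overlapping peaks were not the highest-scoring ones, with scores of 965 (SBNO1) and 822 (TAF4). Its peaks with a score of 1000 lay outside the stretch, 234 bp (SBNO1) and 233 bp (TAF4) from its start, and covered a start of ZMAT5.
NDUFB3, chr2:201071871-201072030, plus strand: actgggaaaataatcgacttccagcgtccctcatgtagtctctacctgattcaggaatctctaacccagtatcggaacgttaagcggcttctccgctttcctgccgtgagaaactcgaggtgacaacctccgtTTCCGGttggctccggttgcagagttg
NDUFAF5, chr20:13784898-13785057, plus strand: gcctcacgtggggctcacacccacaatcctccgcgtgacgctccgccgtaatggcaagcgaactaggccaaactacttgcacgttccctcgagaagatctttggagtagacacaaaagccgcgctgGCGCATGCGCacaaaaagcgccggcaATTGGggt
NDUFAF8, chr17:81239188-81239347, plus strand: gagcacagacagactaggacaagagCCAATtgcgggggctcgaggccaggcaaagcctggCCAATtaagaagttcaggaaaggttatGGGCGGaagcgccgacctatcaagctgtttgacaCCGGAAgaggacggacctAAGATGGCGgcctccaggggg
SDHD, chr11:112086743-112086902, plus strand: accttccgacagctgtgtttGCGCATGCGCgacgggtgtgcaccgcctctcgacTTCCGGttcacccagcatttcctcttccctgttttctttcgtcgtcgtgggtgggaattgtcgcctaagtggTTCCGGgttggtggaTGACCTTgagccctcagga
UQCRQ, chr5:132866512-132866671, plus strand: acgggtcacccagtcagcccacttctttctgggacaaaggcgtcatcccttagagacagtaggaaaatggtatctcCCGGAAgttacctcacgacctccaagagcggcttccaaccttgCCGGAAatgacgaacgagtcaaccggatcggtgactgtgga
UQCR10, chr22:29767239-29767398, plus strand: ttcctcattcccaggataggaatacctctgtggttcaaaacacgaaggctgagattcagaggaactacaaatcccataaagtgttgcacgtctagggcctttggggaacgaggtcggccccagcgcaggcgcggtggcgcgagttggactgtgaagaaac
COX8A, chr11:63974490-63974649, plus strand: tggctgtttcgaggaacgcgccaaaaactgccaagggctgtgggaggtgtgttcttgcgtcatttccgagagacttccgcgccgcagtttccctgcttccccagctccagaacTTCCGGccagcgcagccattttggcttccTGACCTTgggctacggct
COX7A2L, chr2:42361188-42361347, minus strand: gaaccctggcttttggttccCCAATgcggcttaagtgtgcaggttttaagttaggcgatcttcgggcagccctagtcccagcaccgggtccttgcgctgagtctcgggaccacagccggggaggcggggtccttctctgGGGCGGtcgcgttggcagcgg
ATP5MC1, chr17:48892657-48892816, plus strand: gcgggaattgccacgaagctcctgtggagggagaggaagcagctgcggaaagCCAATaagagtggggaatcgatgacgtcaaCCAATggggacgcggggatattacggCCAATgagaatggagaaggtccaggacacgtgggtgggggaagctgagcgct

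None of these promoters showed a TATA box match in the printed stretch. NDUFAF5 carried the palindromic NRF1 consensus across its start, beginning 4 bases upstream, and SDHD carried it from 110 bases upstream. ATP5MC1, which encodes the c subunit of the rotor of ATP synthase, held 3 CCAAT boxes within 78 bases of its start, and UQCR10 held none of the 7 motifs in its stretch. Genes with similar peaks thus did not share 1 set of letters.

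For 3 subunits of complex IV, the widely used gene is shown beside its paralog of restricted expression, because peaks were called at the former and not at the latter. COX6A2 is the heart and skeletal muscle form of COX6A1, and COX8C and COX7B2 are known mainly from the testis. COX8A was printed above.
COX6A1, chr12:120437983-120438142, plus strand: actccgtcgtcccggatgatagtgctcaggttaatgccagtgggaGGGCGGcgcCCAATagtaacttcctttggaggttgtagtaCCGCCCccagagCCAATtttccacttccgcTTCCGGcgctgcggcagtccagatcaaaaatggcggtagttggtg
COX6A2, chr16:31428331-31428490, minus strand: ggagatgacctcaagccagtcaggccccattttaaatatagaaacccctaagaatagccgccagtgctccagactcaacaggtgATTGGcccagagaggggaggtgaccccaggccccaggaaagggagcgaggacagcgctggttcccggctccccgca
COX8C, chr14:93347052-93347211, plus strand: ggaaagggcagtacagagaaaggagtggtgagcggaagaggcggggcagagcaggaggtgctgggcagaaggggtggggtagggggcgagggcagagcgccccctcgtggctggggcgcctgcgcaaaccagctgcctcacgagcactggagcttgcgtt
COX7B, chrX:77899338-77899497, plus strand: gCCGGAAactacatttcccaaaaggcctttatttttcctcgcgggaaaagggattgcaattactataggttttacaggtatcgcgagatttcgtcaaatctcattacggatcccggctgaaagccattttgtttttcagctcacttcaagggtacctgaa
COX7B2, chr4:46909216-46909375, minus strand: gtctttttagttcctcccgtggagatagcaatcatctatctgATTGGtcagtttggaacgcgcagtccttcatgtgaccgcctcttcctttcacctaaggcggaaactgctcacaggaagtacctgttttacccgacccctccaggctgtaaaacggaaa

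The promoters of COX6A1, COX7B and COX8A each held the letters CCGGAA on either strand in these stretches, whereas COX6A2, COX8C and COX7B2 did not. Other forms of an ETS site were not searched. In the longer promoters searched below, CCGGAA was also present at COX4I1 and COX7A2, widely used genes without a peak. It was present at COX6B1, UQCRH and ATP5MG, which had TAF4 alone, and absent at COX6B2. The remaining sequences show a match to the YY1 consensus just inside the transcript, a position described further below. NDUFS4, an accessory subunit of complex I, and SDHB, the iron-sulfur subunit of complex II, had peaks of both proteins here, and they were chosen after their values were seen.
NDUFS4, chr5:53560509-53560668, plus strand: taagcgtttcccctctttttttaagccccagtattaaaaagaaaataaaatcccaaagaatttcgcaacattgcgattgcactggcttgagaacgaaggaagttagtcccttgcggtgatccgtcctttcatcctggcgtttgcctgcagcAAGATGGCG
SDHB, chr1:17054003-17054162, minus strand: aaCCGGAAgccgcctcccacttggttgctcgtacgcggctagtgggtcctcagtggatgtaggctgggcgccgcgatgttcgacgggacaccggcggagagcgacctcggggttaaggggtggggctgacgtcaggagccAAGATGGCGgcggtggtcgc

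Next, promoter peaks were counted, a gene having a peak when the nearest edge of the peak lay within 1 kb of a transcription start site (TSS) of the gene. SBNO1 peaks were found at 52 of the 99 genes (52.5%, interval 42.2% to 62.7%), while 25.7% of the whole protein-coding set had one. TAF4 peaks were found at 70 (70.7%, interval 60.7% to 79.4%), compared with 31.9%. In the IgG library 4 genes had a peak (4.04%, interval 1.11% to 10%), and the share of all genes was 1.41%. The respiratory genes were therefore above the background of all genes for both proteins, by more than the counting error, and the IgG interval included the background. The excess depended on which peaks were kept. Among peaks at the score cap, 23.2% of the respiratory genes had SBNO1 (all genes 9.14%) and 40.4% had TAF4 (17.3%), but among the widest 10% of each list these were 3.03% (all genes 3.58%) and 5.05% (4.37%).

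Both proteins had a peak at 49 genes (49.5%, interval 39.3% to 59.7%; all genes 22.6%). TAF4 was called without SBNO1 at 21 genes (21.2%, interval 13.6% to 30.6%; all genes 9.29%) and SBNO1 without TAF4 at 3 (3.03%, interval 0.629% to 8.60%; all genes 3.08%). At 26 genes (26.3%, interval 17.9% to 36.1%) neither was called, compared with 65.0% of all genes. Given an SBNO1 peak, 94.2% of the respiratory genes (interval 84.1% to 98.8%) also had a TAF4 peak, against 88.0% of all genes with SBNO1. Given a TAF4 peak, 70.0% (interval 57.9% to 80.4%) had SBNO1, against 70.9% of all genes with TAF4. Counted by gene, both intervals included the share of all genes.

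**Figure D1:**
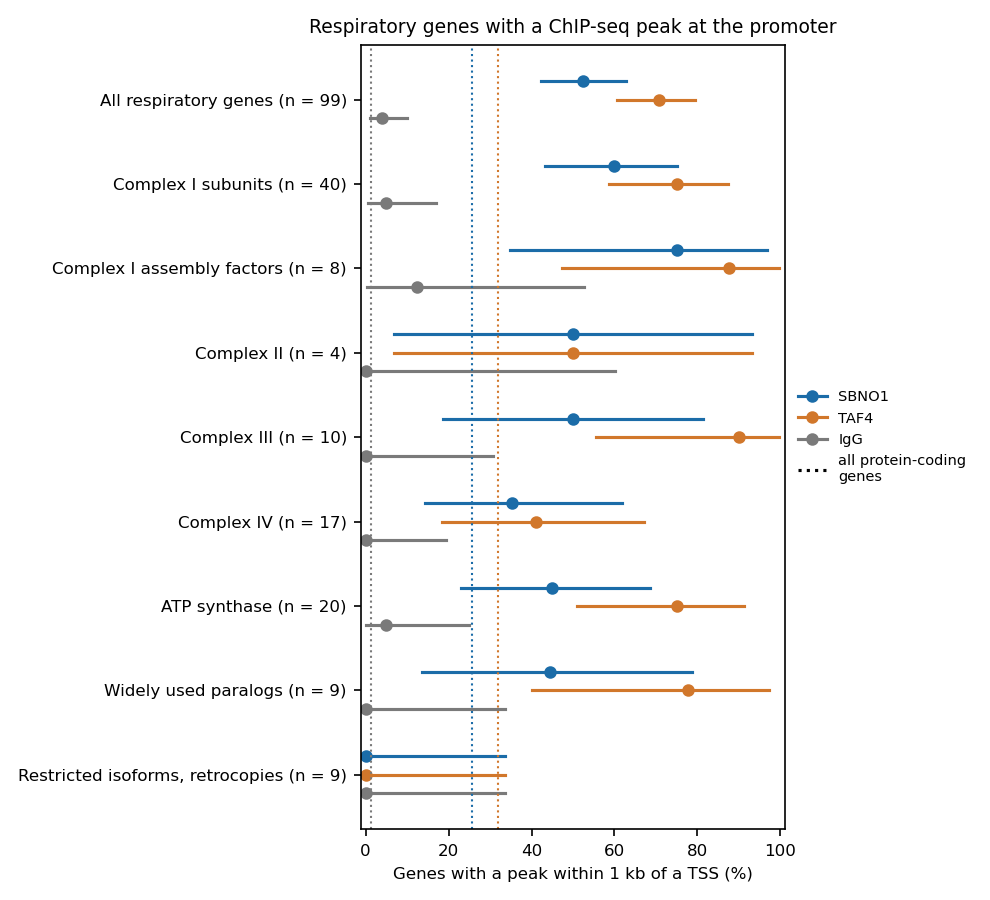
Share of genes with a peak within 1 kb of a TSS (x axis, %) for the respiratory genes, the 6 groups by complex and the paralog groups, with SBNO1, TAF4 and IgG as points, exact 95% intervals as lines and the shares of all protein-coding genes as dotted lines. TAF4 reached 90% in complex III and 41.2% in complex IV, and no peak was called at the 9 restricted isoforms and retrocopies.

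By group, the TAF4 intervals of complex I, its assembly factors, complex III and ATP synthase lay above the 31.9% of all genes, and the SBNO1 intervals of complex I and its assembly factors above the 25.7%. The intervals of complex II and complex IV, and the SBNO1 intervals of complex III and ATP synthase, included the shares of all genes.

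Complex I, the NADH dehydrogenase, was among the groups with the most calls. Of its 40 subunit genes, 24 had an SBNO1 peak (60%, interval 43.3% to 75.1%), 30 a TAF4 peak (75.0%, interval 58.8% to 87.3%), 22 both and 8 neither. The 7 core subunits, which bind NADH and carry the electrons over the flavin and iron-sulfur centres, each had a peak of at least 1 protein. Both proteins were called at 5 of them, NDUFV1 and NDUFS8 included, NDUFS7 had SBNO1 alone and NDUFV2 had TAF4 alone. At NDUFS1, the largest core subunit, the SBNO1 peak lay at chr2:206159411-206159669 (score 1000) and the TAF4 peak at chr2:206159369-206159968 (score 649).

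Accessory subunits surround the core and are needed for its assembly and stability. By symbol, 32 genes were counted as such, without NDUFC2-KCTD14 but with NDUFA4 and its paralog NDUFA4L2. Of these 32 genes, 17 had SBNO1 (53.1%, interval 34.7% to 70.9%) and 23 had TAF4 (71.9%, interval 53.3% to 86.3%). The highest-ranked TAF4 peak of the complex lay at NDUFB3 (chr2:201071566-201072253, score 1000), where the nearest SBNO1 peak was 44340 bp away. TAF4 alone was also called at NDUFA1, NDUFA12, NDUFB1, NDUFB8, NDUFB11 and NDUFV3. NDUFB7 had SBNO1 alone (chr19:14572023-14572231, score 1000), and the nearest TAF4 peak was 42197 bp away. NDUFS7 stood likewise, with an SBNO1 peak at chr19:1383597-1383945, a score of 998 and the nearest TAF4 peak at 23249 bp. No peak of either protein was called at NDUFA4L2, NDUFA8, NDUFA10, NDUFAB1, NDUFB2, NDUFB4, NDUFB10 and NDUFS5. NDUFAB1 encodes the mitochondrial acyl carrier protein, and its nearest peaks lay 33381 bp (SBNO1) and 33217 bp (TAF4) away. For NDUFB10 the distances were 5156 bp and 5069 bp, for NDUFA10 180009 bp and 180025 bp.

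The NDUFAF genes encode factors that assemble complex I and are not part of the finished enzyme. Of these 8 genes, 6 had SBNO1, 7 had TAF4 and 6 had both. NDUFAF5, which modifies the core subunit NDUFS7, held the highest-ranked SBNO1 peak (chr20:13784849-13785172) next to a TAF4 peak at chr20:13784843-13785054, both with a score of 1000. At NDUFAF7, a methyltransferase that acts on a core subunit, the peaks of both proteins started at the same base (chr2:37231501-37231756 and chr2:37231501-37231763, scores 1000). NDUFAF3 and NDUFAF4 encode partners in 1 assembly module: NDUFAF3 had a TAF4 peak with a score of 933 and no SBNO1 peak, and NDUFAF4 had neither, the nearest TAF4 peak being 375824 bp away.

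Complex II, succinate dehydrogenase, takes part in the citric acid cycle as well as in the chain, and all of its subunits are nuclear. SDHB and SDHD had peaks of both proteins and SDHA and SDHC had none, which with 4 genes leaves an interval of 6.76% to 93.2%. At SDHD, a membrane anchor, the SBNO1 peak reached from 112086332 to 112086935 on chromosome 11 (score 1000) and the TAF4 peak from 112086486 to 112086998 (score 936). At SDHB the SBNO1 peak lay at chr1:17053998-17054246 (score 965) and the TAF4 peak at chr1:17053980-17054340 (score 911). SDHA encodes the flavoprotein that oxidizes succinate, and its nearest peaks were 19721 bp (SBNO1) and 19859 bp (TAF4) away. For SDHC, the other membrane anchor, they were 84917 bp and 75417 bp away. Calls were thus divided within the catalytic part and within the anchor.

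Complex III, the cytochrome bc1 complex, had the highest share of TAF4 of the subunit groups. TAF4 peaks were found at 9 of 10 genes (90%, interval 55.5% to 99.7%) and SBNO1 peaks at 5 (50%, interval 18.7% to 81.3%). CYC1, UQCR10, UQCRB, UQCRC1 and UQCRQ had both. CYC1, which encodes cytochrome c1, had an SBNO1 peak at chr8:144094823-144095122 (score 926) and a TAF4 peak at chr8:144094781-144095136 (score 983). TAF4 alone was called at UQCRFS1 (the Rieske iron-sulfur protein, score 1000), UQCRC2 (a core protein, score 1000), UQCRH (hinge protein, score 981) and UQCR11 (score 889). The core proteins UQCRC1 and UQCRC2 therefore differed in SBNO1: UQCRC1 had an SBNO1 peak with a score of 864, and at UQCRC2 the nearest was 162439 bp away. UQCRB carried the SBNO1 peak with the lowest score among all respiratory genes, 366.

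Complex IV, cytochrome c oxidase, had the lowest shares when all of its genes were counted. SBNO1 was found at 6 of 17 genes (35.3%, interval 14.2% to 61.7%), TAF4 at 7 (41.2%, interval 18.4% to 67.1%) and neither at 10. COX5B, COX6A1, COX7A2L, COX7B, COX7C and COX8A had both, and COX6B1 had TAF4 alone (score 934). The SBNO1 peak of COX8A at chr11:63974274-63974740 (score 1000) and the TAF4 peak of COX7A2L at chr2:42361161-42361743 (score 1000) ranked highest. COX7A2L is related to COX7A and joins complexes III and IV in supercomplexes. Widely used subunits without a peak were COX4I1, COX5A, COX6C and COX7A2, of which COX4I1 lay 183334 bp and COX7A2 34416 bp from the nearest TAF4 peak. The other 6 genes without a peak were restricted isoforms. Without these, 6 of 11 genes had SBNO1 (54.5%, interval 23.4% to 83.3%) and 7 had TAF4 (63.6%, interval 30.8% to 89.1%), and the shares were no longer the lowest, with SBNO1 at 47.4% in ATP synthase without its retrocopy and TAF4 at 50% in complex II.

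ATP synthase showed many TAF4 calls and fewer of SBNO1. TAF4 was found at 15 of 20 genes (75.0%, interval 50.9% to 91.3%), SBNO1 at 9 (45.0%, interval 23.1% to 68.5%), both at 8 and TAF4 alone at 7. ATP5MC1 held the highest-ranked peaks of both proteins, SBNO1 at chr17:48892148-48893093 and TAF4 at chr17:48892199-48893011, with widths of 946 bp and 813 bp and scores of 1000. ATP5MC1, ATP5MC2 and ATP5MC3 encode the same mature c subunit from different loci. ATP5MC2 had both peaks (scores 694 for SBNO1 and 814 for TAF4), and ATP5MC3 had TAF4 alone (score 1000). In the catalytic head (α and β) and its central stalk (γ, δ and ε), ATP5F1B (β) and ATP5F1E (ε) had both proteins. ATP5F1C (γ) had SBNO1 alone, and ATP5F1A (α) and ATP5F1D (δ) had neither. The SBNO1 peak of ATP5F1C (chr10:7787974-7788170, score 1000) ended 7 bp before its start and covered a start of KIN, its neighbour on the opposite strand. The lists do not say which of these genes the peak belongs to. The nearest TAF4 peak was 1974520 bp away. In the stator, ATP5PB and ATP5PF had both, and ATP5PD and ATP5PO had TAF4 alone. Of the membrane subunits, ATP5MJ and ATP5MK had both, ATP5MF and ATP5MG had TAF4 alone and ATP5ME had neither. ATP5IF1, the inhibitor of ATP hydrolysis, had TAF4 alone (score 1000), with an SBNO1 peak 2961 bp away. Subunits that stand in fixed proportion in the enzyme thus fell into all 4 classes, with SBNO1 alone resting on the peak between ATP5F1C and KIN.

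Paralogs gave a comparison within subunits. The rule contained 9 genes that encode isoforms of restricted expression or are retrocopies: NDUFA4L2, UQCRHL, COX4I2, COX6A2, COX6B2, COX7A1, COX7B2, COX8C and ATP5MGL. None had a peak of SBNO1, TAF4 or IgG within 1 kb (0 of 9, upper limit of the interval 33.6%). With 9 genes this interval included the 25.7% (SBNO1) and 31.9% (TAF4) of all genes. Of their 9 widely used counterparts, 4 had SBNO1 (44.4%, interval 13.7% to 78.8%) and 7 had TAF4 (77.8%, interval 40% to 97.2%). The SBNO1 interval of the counterparts also included the share of all genes, and their TAF4 interval lay above it. NDUFA4, COX6A1, COX7B and COX8A had both proteins, UQCRH, COX6B1 and ATP5MG had TAF4 alone, and COX4I1 and COX7A2 had neither. COX6B2, a testis form, was the restricted gene with the nearest peaks, 2175 bp (SBNO1) and 2174 bp (TAF4) away. Without the restricted genes and the readthrough genes, 58.0% of the remaining 88 genes had SBNO1 and 77.3% had TAF4.

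The peaks themselves lay at the starts of the genes. There were 53 different SBNO1 and 69 TAF4 peaks within 1 kb of the respiratory genes. Of the SBNO1 peaks 48 covered a TSS of a respiratory gene (90.6%), and of the TAF4 peaks 67 did so (97.1%). Over all promoter peaks the shares that covered a TSS were 80.6% for SBNO1 and 85.8% for TAF4. The centres were shifted upstream, at a median of -83 bp for SBNO1 and -64 bp for TAF4, compared with -65 bp and -56 bp for all promoter peaks. Median widths were 393 bp and 384 bp (all promoter peaks 420 bp and 418 bp), and median scores 965 and 1000 (all promoter peaks 850 and 1000). The score was at the cap in 43.4% of the SBNO1 and 56.5% of the TAF4 peaks, compared with 32.2% and 50.1% of all promoter peaks. High scores did not go along with wide peaks: SBNO1 peaks at the cap had a median width of 302 bp and those below it 431.5 bp, and for TAF4 these were 317 bp and 463.5 bp. Because most peaks covered the start, the choice of 1 kb mattered little. Just inside the limit lay the second SBNO1 peak of NDUFA11 at 634 bp and an SBNO1 peak near UQCR10 at 234 bp, and just outside it a TAF4 peak at 1378 bp from NDUFS6 and an SBNO1 peak at 1982 bp from ATP5MJ, genes that had closer peaks of the same protein.

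**Figure D2:**
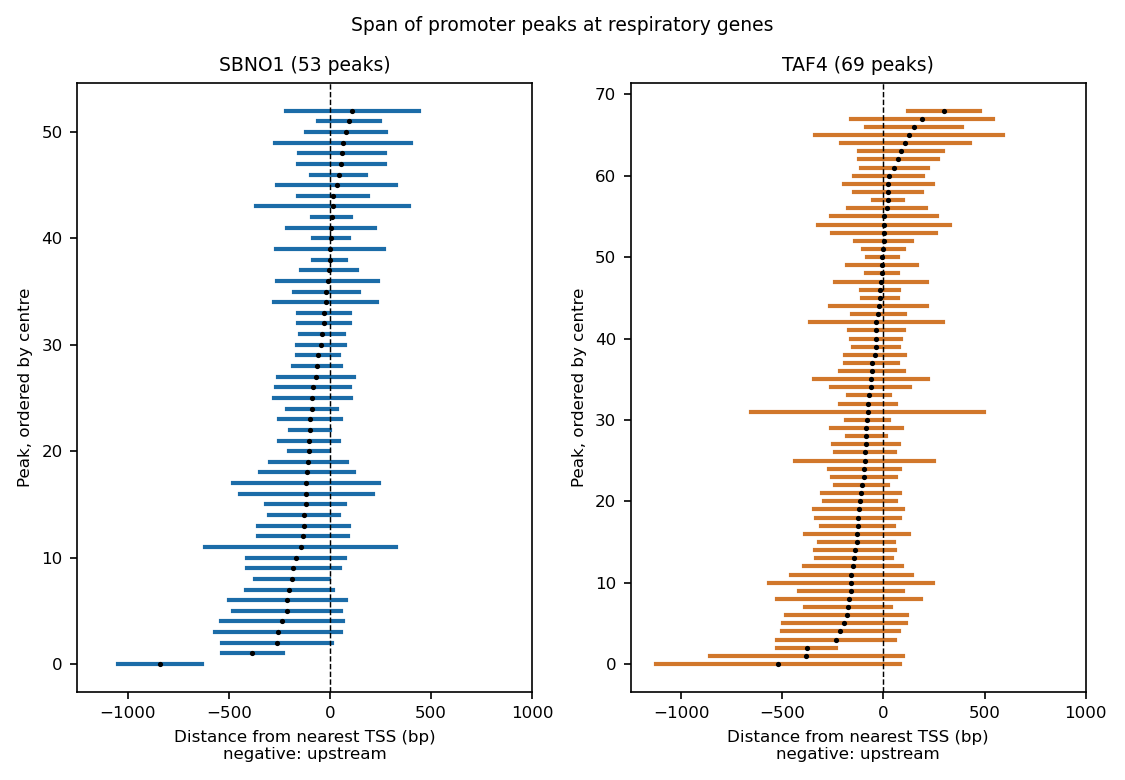
Span (lines) and centre (black points) of each SBNO1 and TAF4 peak within 1 kb of a respiratory gene, by distance from the nearest TSS in bp with negative values upstream, ordered by centre. Most of the 53 SBNO1 and 69 TAF4 peaks cross the dashed line at the TSS, and more centres lie upstream than downstream.

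SBNO1 and TAF4 peaks shared bases where both were called at a respiratory gene. Of the 53 SBNO1 peaks, 50 shared bases with TAF4 (94.3%, interval 84.3% to 98.8%). Over all SBNO1 promoter peaks the share was 83.8%, just below this interval. With at least 50% of each peak shared, it was 75.5% at the respiratory genes (interval 61.7% to 86.2%), which included the 70.9% of all promoter peaks. From the side of TAF4, 49 of 69 peaks (71.0%, interval 58.8% to 81.3%) overlapped SBNO1, compared with 66.3% of all TAF4 promoter peaks. In the 50 overlapping pairs the centres were a median of 51.5 bp apart, 24 pairs lay within 50 bp, and the largest distance was 519 bp. The pairs were chosen by overlap, which itself keeps centres near each other. These distances were not measured for all promoter peaks. The TAF4 peaks without SBNO1 had a median width of 348.5 bp and a median score of 981 (20 peaks), and those with SBNO1 had 390 bp and 1000 (49 peaks), so that TAF4 peaks without SBNO1 included wide and high-scoring ones.

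The IgG control was called at 4 respiratory genes, NDUFV1, NDUFS8, NDUFAF8 and ATP5F1B. Peaks of SBNO1 and TAF4 overlapped the IgG peak at each of them. NDUFV1 encodes the subunit that binds NADH, and its IgG peak (chr11:67606748-67606956) had a score of 991, its SBNO1 peak 979 and its TAF4 peak 1000. At NDUFS8 the scores were 874 for IgG, 1000 for SBNO1 and 1000 for TAF4. At NDUFAF8 they were 745, 565 and 1000, and at ATP5F1B 821, 566 and 1000, in the same order. Scores of different lists are not on a shared scale, but these 4 calls of SBNO1 and TAF4 cannot be told apart from background by the lists. Leaving out all peaks that overlap IgG left 48 genes with SBNO1 (48.5%; all genes 24.6%), 66 with TAF4 (66.7%; all genes 30.8%) and 45 with both (45.5%; all genes 21.4%).

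Many respiratory genes share a promoter region with a neighbour on the opposite strand. A protein-coding gene starting within 1 kb upstream on the other strand was present at 37 of the 99 genes (37.4%) and at 14.4% of all protein-coding genes. Such pairs included ATP5PF with GABPA, which encodes a regulator of respiratory genes, SDHD with TIMM8B, NDUFB5 with MRPL47 and NDUFS6 with MRPL36, both encoding proteins of the mitochondrial ribosome, NDUFA7 with RPS28, NDUFAF5 with ESF1 and UQCRQ with GDF9. Among the 37 genes, SBNO1 was found at 25 (67.6%, interval 50.2% to 82.0%) and TAF4 at 31 (83.8%, interval 68.0% to 93.8%). Among the 62 genes without such a neighbour, SBNO1 was found at 27 (43.5%, interval 31.0% to 56.7%) and TAF4 at 39 (62.9%, interval 49.7% to 74.8%). For all protein-coding genes, the shares with and without a divergent neighbour were 52.7% and 21.1% for SBNO1 and 63.5% and 26.6% for TAF4. Without a divergent neighbour, the respiratory genes were above all genes for both proteins by more than the counting error. With one, only TAF4 was, since the SBNO1 interval included the 52.7% of all genes. Divergent promoters were more frequent among the respiratory genes and carried more peaks, and their part in the overall shares was not tested. Of the 52 genes with SBNO1, 26 shared their peak with another protein-coding gene within 1 kb, and of the 70 with TAF4, 36 did. These counts include NDUFC2 and its readthrough gene NDUFC2-KCTD14, whose peaks reached no gene but each other. The same share was not computed for all genes with a peak, so these counts have no background. For genes that share a peak the lists do not say which gene it belongs to. When each peak was given only to its nearest TSS, 40 genes kept SBNO1 (40.4%; all genes 21.8%) and 55 kept TAF4 (55.6%; all genes 27.2%).

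The distribution over chromosomes was uneven, which was noticed after the values were seen. On chromosome 5, 6 of 7 respiratory genes had SBNO1 and 6 had TAF4, SDHA being the exception, and of all genes on this chromosome 40.4% had SBNO1 and 43.9% had TAF4. On chromosome 16 none of 5 had SBNO1 and only UQCRC2 had TAF4, and of all genes there 8.19% and 18.9% had these peaks. On chromosome 18 only NDUFV2 of 2 genes had TAF4 and none had SBNO1, the shares of all genes being 6.87% and 16%. Hence 5 of the 26 genes without either peak (NDUFAB1, NDUFB10, COX4I1, COX6A2 and ATP5F1A) and 2 of the 21 with TAF4 alone lay on chromosomes where few genes had SBNO1 or TAF4 peaks. The part of the chromosome in these calls was not tested. On the other chromosomes, 46 of 85 respiratory genes had SBNO1 (54.1%) and 62 had TAF4 (72.9%).

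The 78 RefSeq promoters, from 250 bases before to 50 bases after the start, were then searched for the motifs named above, and 15306 promoters of protein-coding genes, 1 per gene, served as the comparison. The NRF1 consensus was present in 19.2% (interval 11.2% to 29.7%), compared with 4.38% of all promoters. The ETS consensus was present in 46.2%, compared with 23.7%, the YY1 consensus in 12.8%, compared with 2.98%, and the ERR consensus in 12.8%, compared with 2.87%. SP/KLF (62.8% and 61.8%), NFY (34.6% and 36.6%) and TATA (7.69% and 9.42%) were close to all promoters when both strands were read. On the strand of the gene alone, GGGCGG was present in 28.2% of the respiratory promoters and in 43.4% of all promoters. Over the 78 promoters together, matches to NRF1, ETS, YY1 and ERR were thus more frequent than in all promoters. The median GC content was 61% in these promoters and 63.7% in all.

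Between the classes of peaks, most motifs differed by less than the counting error. The ETS consensus was found in 45.0% of the 40 promoters with both proteins, 44.4% of the 18 with TAF4 alone and 41.2% of the 17 with neither, and in 38.0% of the promoters of all genes with both proteins. NRF1 matches were present in 22.5% of the promoters with both proteins, in none of the 18 with TAF4 alone (upper limit 18.5%) and in 23.5% of those with neither. The NRF1 shares without any peak and with both were thus similar, and the matches without a peak were at NDUFA8, NDUFB4, NDUFAF4 and ATP5ME. The YY1 consensus occurred in 8 of the 40 promoters with both proteins (20.0%), in 1 with TAF4 alone (NDUFB8), in 1 with SBNO1 alone (NDUFS7) and in none of the 17 with neither. Among all genes with both proteins, 7.04% of promoters held it, compared with 2.98% of all promoters. These intervals overlapped between the classes of respiratory genes, and the comparison rests on 10 promoters.

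All 10 YY1 matches read in the direction of the gene, and 9 of them began between positions 10 and 26, counted from 1 at the start. They lay at NDUFAF8 (position 10), NDUFA9 and SDHB (11), NDUFA7 (15), NDUFB8 and NDUFS7 (18), NDUFS4 (22), UQCRC1 (24) and NDUFA6 (26). The tenth, at ATP5PF, began 207 bases upstream. The printed promoters of NDUFS4, SDHB and NDUFAF8 show this position. Of all promoters, 456 held the YY1 consensus on either strand and 361 held it on the strand of the gene. The direction of the matches was thus not particular to the respiratory genes. Positions were not computed for all promoters, so those given here have no background.

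**Figure D3:**
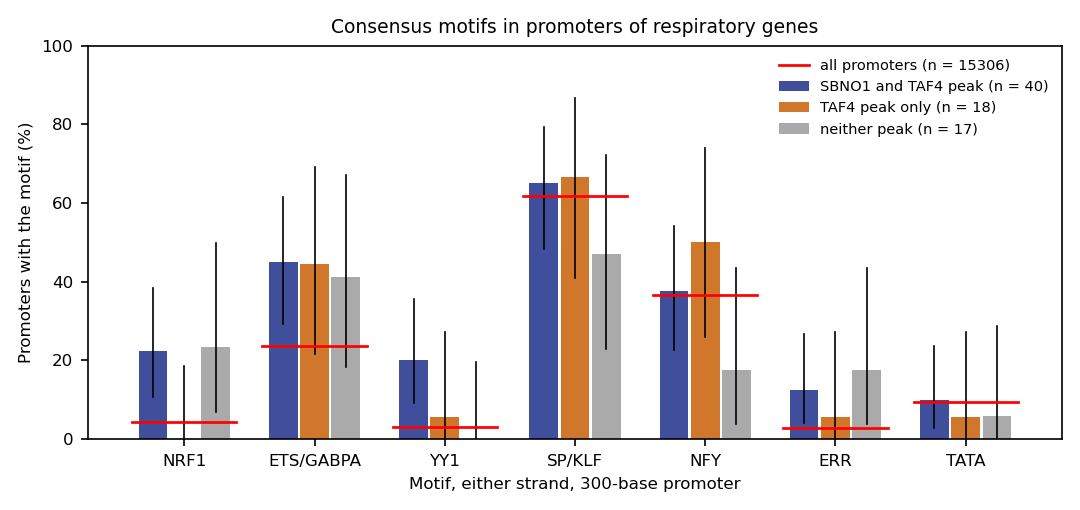
Share of promoters (y axis, %) with each of 7 consensus motifs on either strand for respiratory genes with both proteins, with TAF4 only and with neither, with exact 95% intervals as black lines and all promoters as red lines. In the class with both proteins, the intervals of NRF1, ETS, YY1 and ERR lie wholly above the red line and those of SP/KLF, NFY and TATA cross it, and no promoter of the class with TAF4 only held NRF1.

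Other genes of the pathway were taken from lists by function. Of 42 assembly factors of complexes II to V, 23 had SBNO1 (54.8%, interval 38.7% to 70.2%) and 29 had TAF4 (69.0%, interval 52.9% to 82.4%). Of 9 assembly factors of complex I with other symbols, 6 had SBNO1 and 8 had TAF4, among them ACAD9 and FOXRED1 with scores of 1000 for both proteins. COA1, which had both proteins, stood in both of these lists. Factors that build the complexes thus had shares near those of the subunits. Of 8 genes of electron carriers and of exchange over the inner membrane, CYCS (cytochrome c), ETFA and ETFDH had both proteins, and SLC25A3, the phosphate carrier, had TAF4 alone. The ADP/ATP carriers SLC25A4, SLC25A5 and SLC25A6 had neither. The intervals of these 8 genes were 8.52% to 75.5% for SBNO1 and 15.7% to 84.3% for TAF4. They included the 25.7% and 31.9% of all genes. CYCS also had an IgG peak with a score of 550. Among the assembly factors, COA4 (score 835) and TMEM126B (score 550) had an IgG peak beside peaks of both proteins.

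Of 13 genes of coenzyme Q synthesis, 6 had SBNO1 (46.2%, interval 19.2% to 74.9%) and 8 had TAF4 (61.5%, interval 31.6% to 86.1%). Both intervals included the shares of all genes (25.7% and 31.9%). Of 13 genes of the citric acid cycle, 8 had SBNO1 (61.5%) and 10 had TAF4 (76.9%). The citric acid cycle intervals began at 31.6% (SBNO1) and 46.2% (TAF4), above the shares of all genes. Citrate synthase (CS), FH and MDH2 had both, and DLD, SUCLG1 and SUCLG2 had neither. Among 13 regulators of respiratory genes, 7 had both proteins: GABPA, YY1, ESRRA, PPRC1, TFAM, TFB2M and MYC. TFB1M had TAF4 alone with a score of 492, and NRF1, GABPB1, POLRMT and the coactivators PPARGC1A and PPARGC1B had neither. The intervals of the regulators for SBNO1 (25.1% to 80.8%) and for TAF4 (31.6% to 86.1%) included the shares of all genes. GABPA shares its peak with ATP5PF and is not a separate measurement.

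**Figure D4:**
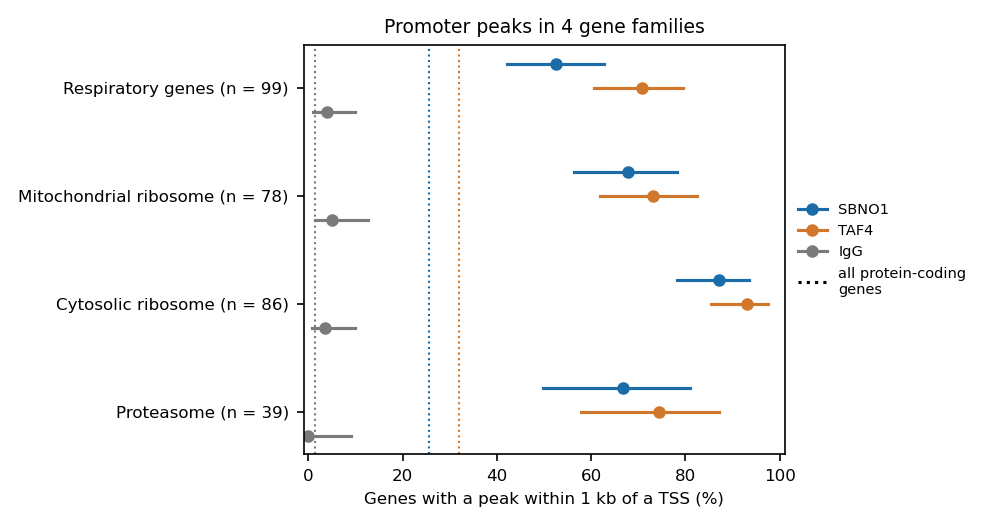
Share of genes with a promoter peak (x axis, %) in the respiratory genes and in 3 other families whose genes are used in most cells, with exact 95% intervals as lines and all protein-coding genes as dotted lines. The gap between SBNO1 (52.5%) and TAF4 (70.7%) is wider in the respiratory genes than in these 3 families. Assembly factors of complexes II to V, which are not shown, had 54.8% and 69.0%.

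Finally, the respiratory genes were set beside other families whose genes are active in most cells. SBNO1 was found at 67.9% of 78 mitochondrial ribosome genes (interval 56.4% to 78.1%), at 87.2% of 86 cytosolic ribosome genes (interval 78.3% to 93.4%) and at 66.7% of 39 proteasome genes (interval 49.8% to 80.9%). For TAF4 the shares were 73.1%, 93.0% and 74.4%. The TAF4 share of the respiratory genes (70.7%) was within the interval of the mitochondrial ribosome and of the proteasome, and its SBNO1 share (52.5%) was below the lower limit of both ribosomal families, although its interval overlapped that of the mitochondrial ribosome. Without the 9 restricted isoforms and retrocopies it was 57.8% (interval 46.9% to 68.1%), which is within the interval of the mitochondrial ribosome and below that of the cytosolic ribosome. TAF4 without SBNO1 was called at 21.2% of the respiratory genes (interval 13.6% to 30.6%), 11.5% of the mitochondrial ribosome (interval 5.41% to 20.8%), 5.81% of the cytosolic ribosome (interval 1.91% to 13.0%) and 7.69% of the proteasome (interval 1.62% to 20.9%). Only the interval of the cytosolic ribosome did not overlap that of the respiratory genes, and with 1 library per antibody no test of these differences was possible.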

How the data were processed

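Chromatin of HuCCT1 cells was fragmented by nuclease digestion with a commercial kit, and 1 library each was sequenced for SBNO1, TAF4 and IgG, the groups being taken from the antibody named in the labels. Reads were aligned with Bowtie2 (2.5.4 per the submitters' processing notes) to GRCh38.p14. The methods of the study name normR as peak caller and the submitters' processing notes name Genrich (0.6.1), and which of them made the lists could not be settled. The threshold, the treatment of duplicate reads and the use of IgG as control were not stated. With these lists, 5057 genes had SBNO1 and 6280 had TAF4 within 1 kb of a TSS. The study reported far fewer genes for both proteins, and a larger part of its peaks lay that close to a TSS. All shares here are those of the deposited lists and not of the published calls, and the reason for the difference was not tested. The deposited lists give chromosome, start, end, name and a score that the authors' pipeline capped at 1000, with no scale stated. They hold no read numbers, so that depth is unknown.

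Distances were measured from the nearest peak edge to 78567 TSS of protein-coding transcripts (GENCODE 44), and a peak within 1 kb was counted for every gene in reach. Coordinates are 1-based. Peaks overlapped when they shared at least 1 bp. RefSeq promoters were matched by symbol, and the one nearest to the canonical TSS of GENCODE was used where a gene had several. Exact intervals were computed with SciPy 1.17.1 in Python 3.11.15. With 1 library per antibody there were no replicates and no p-values were computed. Assignment, overlap and motif search were tested on simulated data.

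The members and the lists of related genes were chosen with earlier results of these data known. Named are the genes with the highest-scoring SBNO1 and TAF4 peak of each group (ties by width), those with an IgG peak, those with only 1 of both proteins or neither, paralogs, complex II, CYC1 and genes with peaks next to the 1 kb limit. Other examples were chosen after their values were seen. Some genes that the rule would name are counted but not reported here by name. Alternatives tried were other distances, TSS sets and assignments, score filters, equal list lengths, removal of IgG peaks and of gene classes, and other motif windows.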

Additional observations from a re-analysis of the deposited data

How the results depend on the processing

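No paired analysis was possible because there was 1 library per antibody. A count was taken as moved when it changed by over 1.5 times and a share when it left its 95% interval. The alternatives gave 75 values, of which 56 stayed within the limits and 19 moved. Other distances, TSS sets, assignment to the nearest TSS, equal list lengths and removal of IgG peaks or gene classes left the counts of genes with SBNO1 between 40 and 54, with TAF4 between 55 and 71, with both between 33 and 51 and with IgG at 3 or 4. Filters on peaks lowered them by construction. With scores at or above the list median, SBNO1 remained at 34 genes (34.3%; all genes 13.1%), both at 23 and IgG at 2, and with scores at the cap SBNO1 at 23 (23.2%; all genes 9.14%), TAF4 at 40 (40.4%; all genes 17.3%), both at 14 and IgG at 0. In the widest 10% of each list, an alternative chosen after seeing the data, 3 genes had SBNO1 (3.03%; all genes 3.58%), 5 TAF4 (5.05%; all genes 4.37%), 1 both and 0 IgG, so that the excess over all genes was not seen there. A shared length of 50% of each peak lowered the overlap to 75.5% of SBNO1 and 58.0% of TAF4 peaks. In 200 bases at the peak centre, NRF1 matches fell to 11.0% and ERR matches to 5.48% of 73 windows, of genes with a peak only. Counting the gene strand alone gave 28.2% for ETS (all promoters 13.2%), 28.2% for SP/KLF (43.4%), 17.9% for NFY (21.0%) and 3.85% for ERR (1.48%), and the cause of the lower SP/KLF share was not tested. Depth limits all counts in a way that the lists do not show.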
